A study of Arabidopsis thaliana with 12 samples.

Results

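The ATG8 genes of Arabidopsis thaliana, ATG8A to ATG8I, were followed through the 4 groups of seedlings whose RNA was sequenced. The 9 loci were chosen by name, and all 9 were found among the 33602 genes of the count table. On the TAIR10.1 assembly, with the strand after the position, ATG8A is AT4G21980 (chr4:11655562-11657034, plus), ATG8B is AT4G04620 (chr4:2328442-2330590, minus), ATG8C is AT1G62040 (chr1:22932760-22934549, plus), ATG8D is AT2G05630 (chr2:2082894-2084905, minus), ATG8E is AT2G45170 (chr2:18624264-18625791, plus), ATG8F is AT4G16520 (chr4:9306339-9308538, minus), ATG8G is AT3G60640 (chr3:22415751-22417548, plus), ATG8H is AT3G06420 (chr3:1954990-1956397, minus) and ATG8I is AT3G15580 (chr3:5273526-5275095, minus). All 9 are protein-coding, and positions span the whole gene. The groups, of 3 libraries each, were OK100-oct seedlings with ABA, OK100-oct seedlings without treatment, wild-type (WT) seedlings with ABA and WT seedlings without treatment. The WT was the Col-0 accession, and the labels give an age of 12 days for every library. OK100-oct, taken to be the line labelled m9 in the deposited samples, is a single line in which CRISPR-Cas9 had made 8 genes of RAF protein kinases null (RAF3 to RAF5 and RAF7 to RAF11). The groups were set up to ask how far the response of transcripts to ABA depends on these kinases. The dose and duration of ABA before the RNA was taken were not given in the sources used here.

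ATG8 proteins are small ubiquitin-like proteins of autophagy, the process by which cells enclose cytoplasm in membrane and deliver it to the vacuole for breakdown. The protease ATG4 trims them to a glycine at the carboxyl end, ATG7 and ATG3 then couple that glycine to a membrane lipid with the help of the ATG12, ATG5 and ATG16 proteins, and receptors such as NBR1 bring cargo to the ATG8 on the membrane. Abscisic acid (ABA) is the hormone of drought and seed dormancy, and its signal passes through SnRK2 kinases that RAF kinases can phosphorylate. Autophagy in plants is best known for recycling in starved and senescing tissue.

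The family divides by the end of its coding sequence, which is shown here because it separates ATG8H and ATG8I from the rest. Each line gives the last 45 bases of the coding strand, stop codon included, with the codon of the conserved glycine in capitals, from the TAIR10.1 genome and RefSeq annotation.
ATG8A: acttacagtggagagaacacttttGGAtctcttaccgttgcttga
ATG8B: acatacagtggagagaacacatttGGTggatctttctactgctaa
ATG8C: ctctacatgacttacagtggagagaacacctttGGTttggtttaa
ATG8D: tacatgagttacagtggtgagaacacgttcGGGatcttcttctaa
ATG8E: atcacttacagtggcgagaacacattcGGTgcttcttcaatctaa
ATG8F: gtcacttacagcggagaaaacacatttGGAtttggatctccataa
ATG8G: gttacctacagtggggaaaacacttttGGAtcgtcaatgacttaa
ATG8H: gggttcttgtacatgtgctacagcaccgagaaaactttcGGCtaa
ATG8I: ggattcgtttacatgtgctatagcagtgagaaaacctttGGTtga
In ATG8H (chr3:1955219-1955263, minus strand) and ATG8I (chr3:5274075-5274119, minus strand) the glycine codon stood directly before the stop codon. In the other genes 2 (ATG8C) to 5 (ATG8A and ATG8B) codons followed it, the part that ATG4 removes. ATG8H and ATG8I were 66.1% identical to each other over their coding sequences, and each was at most 58.9% identical to any other member. The closest pairs were ATG8E with ATG8G and ATG8B with ATG8C, both at 77.5%. No stretch of 50 exon bases of any member occurred in another gene, so the counts of the members were not shared through identical sequence of that length. The exons of ATG8A overlap those of AT4G21990 (APR3), on the opposite strand, by 27 bases, and the exons of ATG8I contain all 183 exon bases of AT3G15578, also on the opposite strand. The sources name both a stranded and an unstranded library kit, so reads in these overlaps could not be assigned. AT3G15578 had 0 counts in all 12 libraries, and APR3 is given below beside ATG8A.

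All 9 members were transcribed in the seedlings and passed the low-count filter, with 38 counts in the lowest library of the scarcest gene (ATG8G) and 5856 in the highest library of the most counted (ATG8E). Library totals lay between 16632701 and 26661613 counts, and ATG8 took between 0.0252% and 0.0481% of them without ABA and between 0.0519% and 0.0783% with ABA. Values below are CPM, counts scaled to a library of 1000000 after edgeR's TMM factor. The labels were checked against other genes: the ABA-induced genes RAB18 and RD29B rose with ABA in both genotypes. Of the 8 mutated RAF genes, 5 without ABA and 6 with ABA were called lower in OK100-oct than in WT, and none was called higher. Of all tested genes, 2.29% were called lower without ABA and 20.7% with ABA. The paper's OK100-nonu line carries mutations in the same 8 genes and in RAF6. This check therefore cannot tell these lines apart. Leaf genes (RBCS1A, LHCB1.3, CA1) summed to between 26310 and 34470 CPM and root genes (PYK10, COBL9, RHD6) to between 917 and 2653 CPM over the 12 libraries, so both parts of a seedling were present. RNA from whole seedlings does not tell fewer cells of a type apart from less RNA per cell.

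Several libraries stood apart. In WT without ABA all 9 members were highest in replicate 3 and lowest in replicate 2, and in OK100-oct without ABA all 9 were highest in replicate 2. The ratio of the highest to the lowest replicate had a median over the members of 1.18 in OK100-oct with ABA, 1.53 in OK100-oct without ABA, 1.10 in WT with ABA and 1.79 in WT without ABA. Of the other autophagy genes, 35 of 44 were highest in WT replicate 3 without ABA, while 37.8% of all 20617 tested genes were highest there. Their lowest WT control was replicate 1 for 24 and replicate 2 for 19, unlike that of the members. Of all tested genes, 36.6% were lowest in WT replicate 2 without ABA. In OK100-oct without ABA, 31 of the 44 other autophagy genes were highest in replicate 2, as were 34.2% of all tested genes. In OK100-oct with ABA, 7 of 9 members and 30 of the 44 were lowest in replicate 2, as were 35% of all tested genes. That library also held 85 counts of the seed storage and oil-body genes CRA1, CRC and OLEO1, against 2 and 1 counts in the other replicates of that group. The part of these differences in the results was not tested, but counts without the libraries are given beside them.

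**Figure D1:**
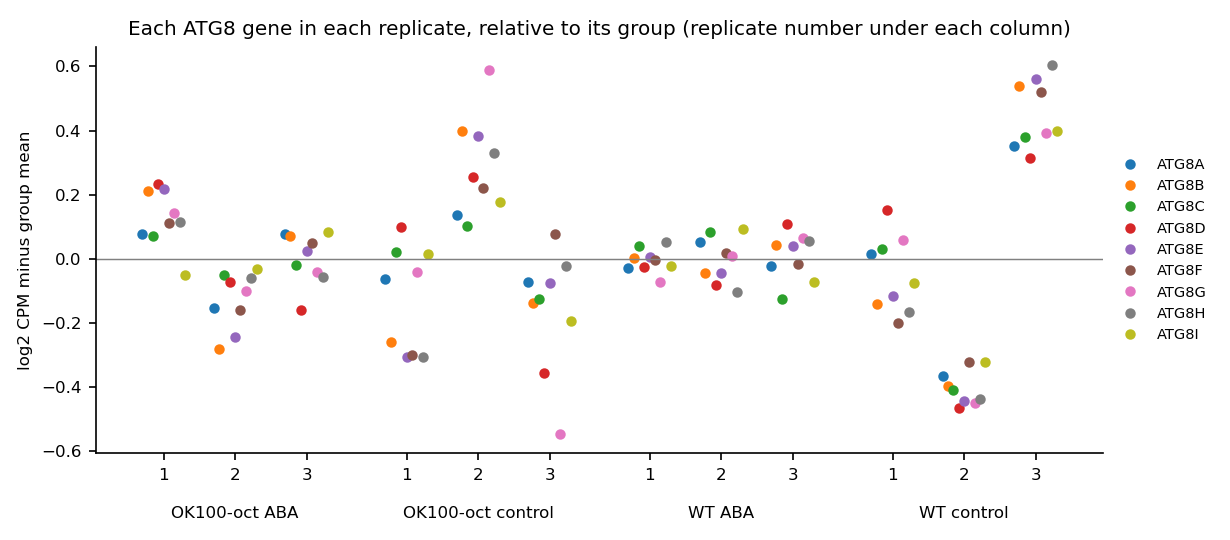
Deviation of each ATG8 gene (colours) in each replicate from the mean of its group, on the log2 CPM scale, for the 4 groups of 3 libraries. In WT without ABA all 9 genes lie above 0.3 in replicate 3 and below -0.3 in replicate 2, while in WT with ABA they lie within 0.13 of the group mean.

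ABA raised the ATG8 genes in both genotypes. In OK100-oct, 7 of 9 members passed the test as higher and none as lower (edgeR quasi-likelihood test, adjusted p under 0.05 over 20617 genes), where 25.9% of all tested genes were higher and 26.1% lower. In WT, 9 of 9 were higher, where 32.2% of all tested genes were higher and 36.4% lower. The median log2 fold change of the members was 1.15 in OK100-oct, against -0.01 over all tested genes, and 1.12 in WT, against -0.06 over all tested genes. Without OK100-oct control replicate 2 the OK100-oct count was 9, without WT control replicate 3 it was 8, and without OK100-oct ABA replicate 2 it was 7. With a change of at least 3-fold required as well, 1 member remained in OK100-oct (ATG8B, background 3.56%) and 3 in WT (ATG8A, ATG8B and ATG8H, background 7.18%).

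ATG8H, which ends at its glycine, had the largest response of the family in WT. In OK100-oct it was at 54.5, 48.3 and 48.4 CPM with ABA, against 13.4, 20.8 and 16.3 CPM without. In WT it was at 118.6, 106.4 and 118.8 CPM with ABA, against 12.4, 10.2 and 21.1 CPM without. The ABA and control libraries did not overlap in either genotype, and every WT library with ABA was above every OK100-oct library with ABA. The log2 fold change was 1.58 (SE 0.21, adjusted p = 4.7e-05 by edgeR, 2.996-fold and so just under the 3-fold limit) in OK100-oct and 2.97 (SE 0.22, adjusted p = 6.1e-08 by edgeR, 7.83-fold) in WT. The difference between these responses was -1.39 (SE 0.29, adjusted p = 0.0054 by edgeR) and passed in all 19 alternatives tried, with adjusted p between 2.9e-05 and 0.018.

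ATG8I, the other member that ends at its glycine, did not share this. It was at 20.9, 21.2 and 23.0 CPM with ABA in OK100-oct, against 9.81, 10.99 and 8.49 CPM without. In WT it was at 30.4, 33.0 and 29.4 CPM with ABA, against 13.1, 11.1 and 18.3 CPM without. ABA and control libraries were separate in each genotype, and in both treatments the OK100-oct libraries lay below all WT libraries. The log2 fold change with ABA was 1.15 (SE 0.15) in OK100-oct and 1.12 (SE 0.15) in WT, with an interval of -0.43 to 0.48 (95%) for their difference.

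Among the members with an extension after the glycine, ATG8A and ATG8B rose most in WT. In OK100-oct ATG8B rose most of these, and ATG8F (log2 fold change 1.25) lay just above ATG8A. ATG8A was at 42.3, 36.1 and 42.3 CPM with ABA in OK100-oct, against 16.4, 18.8 and 16.3 CPM without, and at 77.8, 82.3 and 78.1 CPM with ABA in WT, against 20.6, 15.8 and 26.02 CPM without. The ABA libraries of OK100-oct lay between the control libraries and the ABA libraries of WT, with no overlap on either side. The log2 fold change was 1.23 (SE 0.14, adjusted p = 1.5e-05 by edgeR) in OK100-oct and 1.93 (SE 0.14, adjusted p = 6.3e-08 by edgeR) in WT. The difference was -0.70 (SE 0.20, adjusted p = 0.026 by edgeR), and it passed in 14 of 19 alternatives. It was lost, with adjusted p between 0.0505 and 0.064, on leaving out WT control replicate 1, OK100-oct control replicate 2, WT ABA replicate 2, WT ABA replicate 3 or OK100-oct ABA replicate 2. The gene across the strand, APR3 (an enzyme of sulfate assimilation), was at -0.32 in OK100-oct on the log2 scale (adjusted p = 0.15 by edgeR) and fell by 1.22 in WT (adjusted p = 5.0e-05 by edgeR).

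ATG8B was at 83.6, 59.4 and 75.9 CPM with ABA in OK100-oct, against 19.7, 31.0 and 21.4 CPM without. In WT it was at 124, 120.5 and 128 CPM with ABA, against 25.9, 21.7 and 41.5 CPM without. The ABA and control libraries did not overlap in either genotype, the OK100-oct libraries with ABA lay below those of WT, and the controls of the genotypes overlapped. The log2 fold change was 1.60 (SE 0.22) in OK100-oct and 2.06 (SE 0.22) in WT, both called, and their difference of -0.46 (95% interval -1.11 to 0.19) was not called, though it was without WT control replicate 3 (-0.78, adjusted p = 0.024 by edgeR, in a range of 0.024 to 0.64 over the alternatives).

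ATG8E and ATG8F were the members with the most counts. ATG8E was at 231.9, 168.5 and 202.9 CPM with ABA in OK100-oct, against 79.6, 128.4 and 93.6 CPM without, and at 254.1, 245.3 and 260.0 CPM with ABA in WT, against 99.0, 78.9 and 158.4 CPM without. ATG8F was at 180.6, 149.6 and 173.1 CPM with ABA in OK100-oct, against 56.7, 81.4 and 73.7 CPM without, and at 216.3, 219.5 and 214.3 CPM with ABA in WT, against 89.8, 82.5 and 147.8 CPM without. For both genes the ABA libraries lay above the control libraries in each genotype, and the WT controls covered a wide range. The log2 fold change of ATG8E was 1.00 (SE 0.22) in OK100-oct and 1.17 (SE 0.22) in WT, and that of ATG8F was 1.25 (SE 0.19) in OK100-oct and 1.02 (SE 0.19) in WT, all called. The difference between genotypes was -0.17 (95% interval -0.85 to 0.50) for ATG8E and 0.23 (-0.34 to 0.79) for ATG8F.

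ATG8C, ATG8D and ATG8G were scarcer. ATG8C was at 21.7, 19.9 and 20.3 CPM with ABA in OK100-oct, against 12.2, 12.96 and 11.1 CPM without, and at 29.99, 30.9 and 26.7 CPM with ABA in WT, against 16.6, 12.2 and 21.2 CPM without. Its log2 fold change was 0.77 (SE 0.15) in OK100-oct and 0.81 (SE 0.15) in WT, both called. ATG8C libraries with ABA were separate from the controls in both genotypes.

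ATG8D was at 24.9, 20.2 and 19.0 CPM with ABA in OK100-oct, against 16.6, 18.5 and 12.1 CPM without, and at 31.8, 30.6 and 34.9 CPM with ABA in WT, against 19.9, 13.02 and 22.3 CPM without. ATG8G was at 4.76, 4.02 and 4.19 CPM with ABA in OK100-oct, against 2.85, 4.40 and 2.00 CPM without, and at 5.70, 6.03 and 6.27 CPM with ABA in WT, against 3.01, 2.11 and 3.79 CPM without. These are the members not called in OK100-oct, and ATG8G in OK100-oct was the only case in which ABA and control libraries overlapped. In OK100-oct the log2 fold change was 0.44 (SE 0.19, adjusted p = 0.061 by edgeR) for ATG8D and 0.49 (SE 0.25, adjusted p = 0.11 by edgeR) for ATG8G, and in WT it was 0.81 (SE 0.18) and 1.00 (SE 0.25), both called. Without OK100-oct control replicate 2 both were called in OK100-oct, at 0.57 for ATG8D and 0.83 for ATG8G. The difference between genotypes was -0.37 (95% interval -0.93 to 0.19) for ATG8D and -0.51 (-1.27 to 0.24) for ATG8G, so a smaller response in OK100-oct than in WT was not shown for either.

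**Figure D2:**
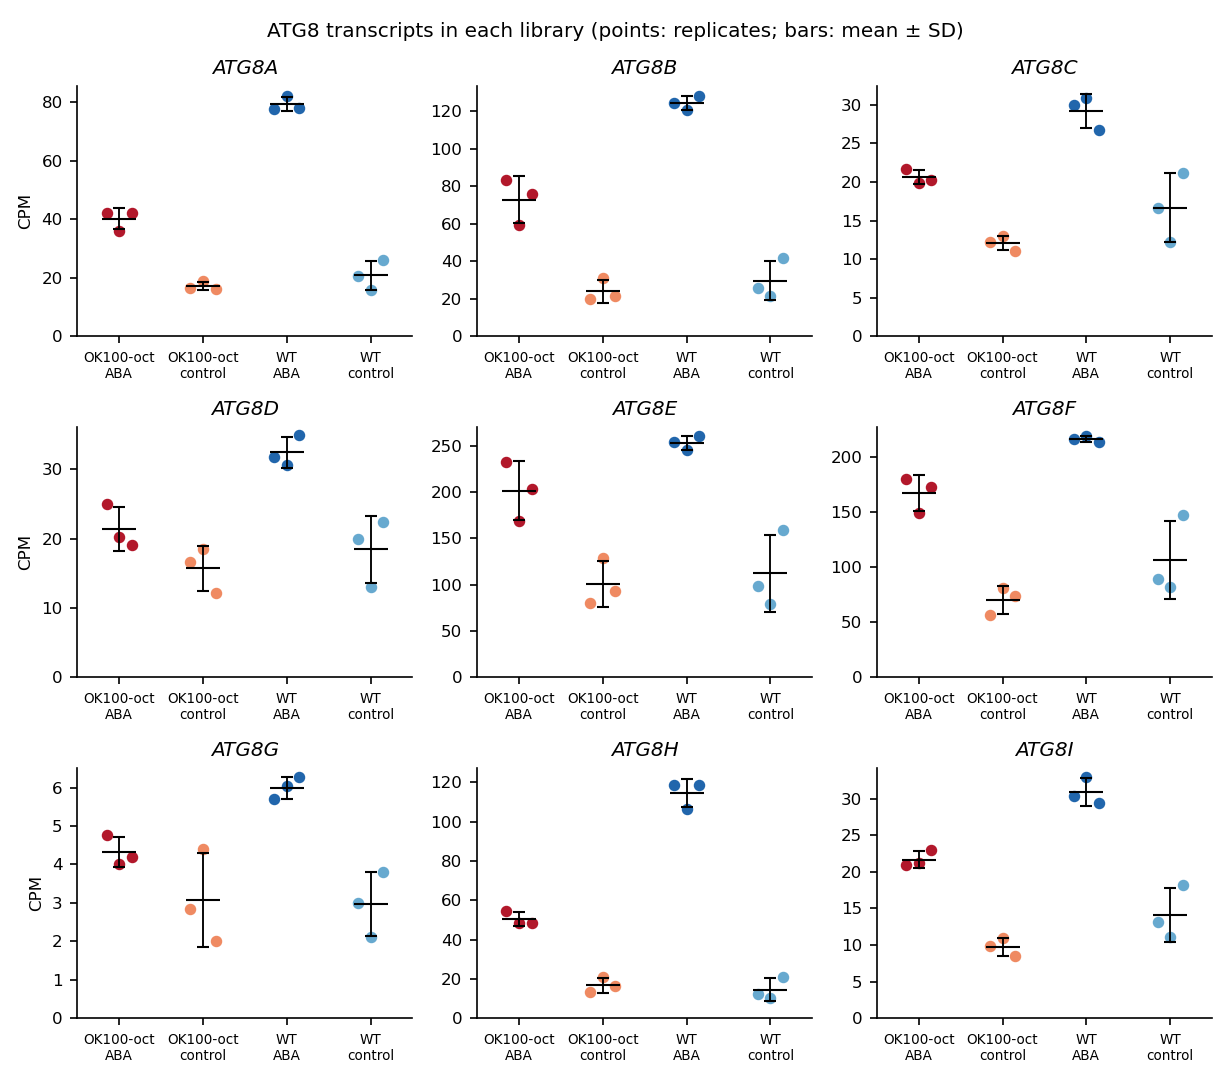
CPM of each ATG8 gene in the 12 libraries, by group from OK100-oct with ABA to WT without ABA (points are replicates, bars the mean ± SD of 3 libraries), each panel with its own linear axis from 0. In each panel the 3 WT libraries with ABA are the highest, and ATG8H in WT with ABA, at 106.4 to 118.8 CPM, stands farthest above its controls.

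Over the family, 2 of 9 members had an ABA response that differed between genotypes, ATG8A and ATG8H, both smaller in OK100-oct than in WT, where 9.55% of all tested genes had a lower and 18.2% any called difference. Neither difference reached 3-fold, a size at which 1.29% of all tested genes had a smaller response. The count was 3 without WT control replicate 3, with ATG8B as the third, and 1 (ATG8H) without OK100-oct ABA replicate 2, OK100-oct control replicate 2, WT ABA replicate 2, WT ABA replicate 3 or WT control replicate 1. The genotypes were also compared within each treatment, in comparisons that share their libraries with those above. With ABA, 6 of 9 members were lower in OK100-oct than in WT and none higher, where 20.7% of all tested genes were lower and 21.3% higher. The log2 differences were -1.18 for ATG8H, -0.98 for ATG8A, -0.77 for ATG8B, -0.60 for ATG8D, -0.51 for ATG8I and -0.50 for ATG8C. ATG8G (-0.47, adjusted p = 0.13 by edgeR), ATG8F (-0.37, adjusted p = 0.12 by edgeR) and ATG8E (-0.33, adjusted p = 0.24 by edgeR) were not called. In all 9 genes the 3 OK100-oct libraries lay below the 3 WT libraries, but the share of all tested genes separated in this way is not given here. A fit to the ABA libraries alone called all 9, again without a share of all tested genes beside it. The same count came from the fit without WT control replicate 3 and OK100-oct control replicate 2, chosen after seeing the data, in which the spread is shared over the groups. With library totals in place of TMM factors the count was 3 (ATG8A, ATG8B and ATG8H), and the median over all tested genes was then 0.17 rather than 0.02. No member differed by 3-fold, where 1.88% of all tested genes were lower by that much.

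Without ABA, 0 of 9 members differed between the genotypes (edgeR), where 2.58% of all tested genes were higher in OK100-oct and 2.29% lower. With an unadjusted p under 0.05 there were 3 (ATG8C, ATG8F and ATG8I). DESeq2 called 2 (ATG8F at -0.59 and ATG8I at -0.53), where it called 845 of all 20617 genes higher and 729 lower. ATG8F and ATG8I were also the members whose OK100-oct control libraries all lay below the WT control libraries. Their log2 differences in edgeR were -0.60 (adjusted p = 0.087) for ATG8F, -0.54 (adjusted p = 0.065) for ATG8I and -0.47 (adjusted p = 0.099) for ATG8C. Without WT control replicate 2 the count was 4 lower, with ATG8A as the fourth. The shares of all tested genes with that unadjusted p, with separate libraries or lower in that fit are not given here.

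**Figure D3:**
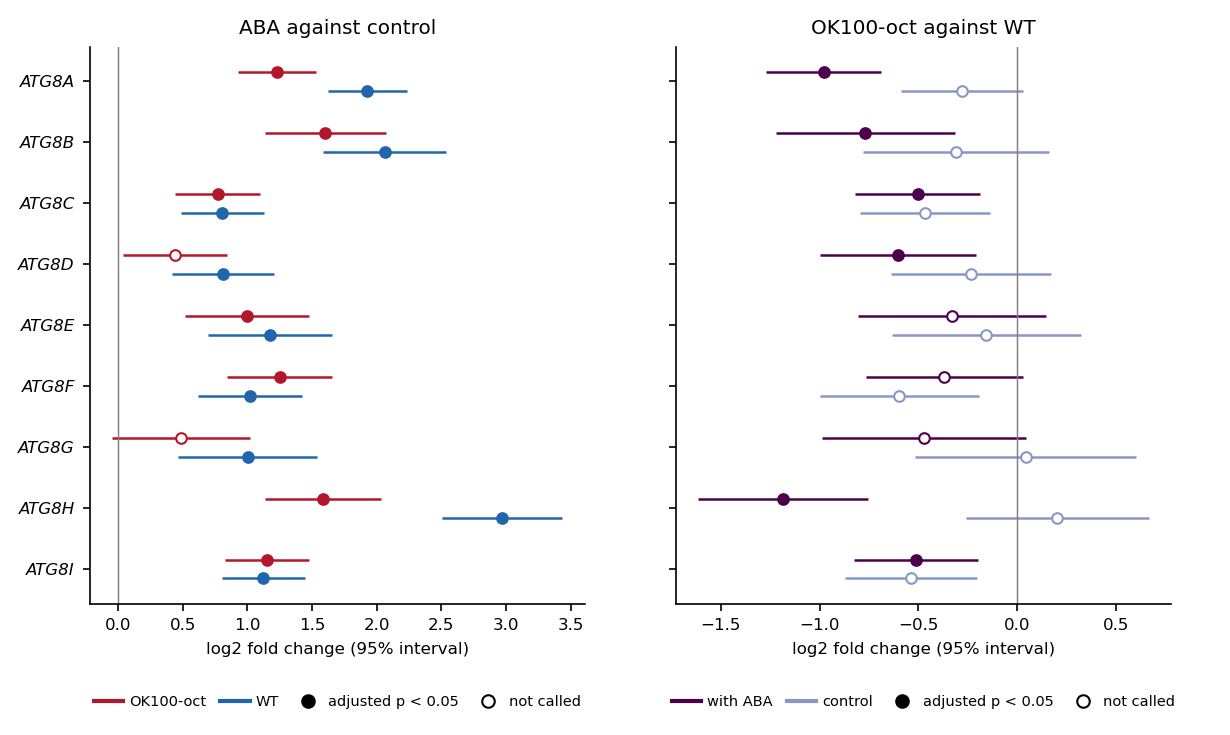
Log2 fold change of each ATG8 gene with its 95% interval, for ABA against control in OK100-oct and in WT (left) and for OK100-oct against WT with ABA and without it (right), 3 libraries per group, filled where the adjusted p was under 0.05. The intervals of the ABA response are apart for ATG8H (1.58 in OK100-oct, 2.97 in WT) and overlap almost fully for ATG8C and ATG8I.

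Levels of different members were compared per kb of exon, which sets CPM over the length of each gene's merged exons. ATG8E was first in every group, with 219.8 ± 34.7 CPM per kb in OK100-oct with ABA, 109.9 ± 27.4 in OK100-oct without ABA, 277 ± 8.1 in WT with ABA and 122.5 ± 45.2 in WT without ABA (SD, n = 3 each). ATG8G was last in every group, between 2.66 and 5.37 CPM per kb on average. Between them the order in OK100-oct with ABA was ATG8F, ATG8H, ATG8B, ATG8A, ATG8D, ATG8I and ATG8C. In WT with ABA it was the same but for ATG8H (160.9 ± 9.98) above ATG8F (116.2 ± 1.4). With ABA the neighbours ATG8D and ATG8I overlapped in both genotypes and all other neighbours were separate. Without ABA the neighbours from ATG8H to ATG8D in OK100-oct, and from ATG8B to ATG8I in WT, overlapped, as did ATG8C and ATG8I in OK100-oct, and their order was not resolved.

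The summed level of the 9 genes was 609.1, 481.5 and 552.8 CPM per kb in OK100-oct with ABA, against 210.1, 303.8 and 231.9 without. In WT it was 837.5, 816.4 and 846.4 CPM per kb with ABA, against 267.8, 216.4 and 406.7 without. The ABA libraries were above the controls in both genotypes, the OK100-oct libraries with ABA were all below the WT libraries with ABA, and the controls of the genotypes overlapped. The log2 difference with ABA was 1.15 (2.22-fold) in OK100-oct and 1.54 (2.91-fold) in WT, and that of OK100-oct against WT was -0.61 with ABA (0.654-fold) and -0.22 without, the last with a pooled SD of 0.38 and of the opposite sign (0.028) without WT control replicate 3. These sums are descriptions and were not tested.

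The make-up of the sum also differed. ATG8H made 12.99 ± 0.96% of it in OK100-oct with ABA and 9.48 ± 0.47% in OK100-oct without ABA, against 19.3 ± 0.87% in WT with ABA and 6.80 ± 0.42% in WT without ABA (SD, n = 3 each). ATG8E and ATG8F together made 54.9% to 57.5% in OK100-oct with ABA and 55.9% to 61.2% in OK100-oct without ABA, and 47.0% to 47.3% in WT with ABA and 58.4% to 62.1% in WT without ABA. In WT the ABA libraries were thus all below the controls in the share of ATG8E and ATG8F, and the share of ATG8H was in no library with ABA as low as in a control of the same genotype.

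**Figure D4:**
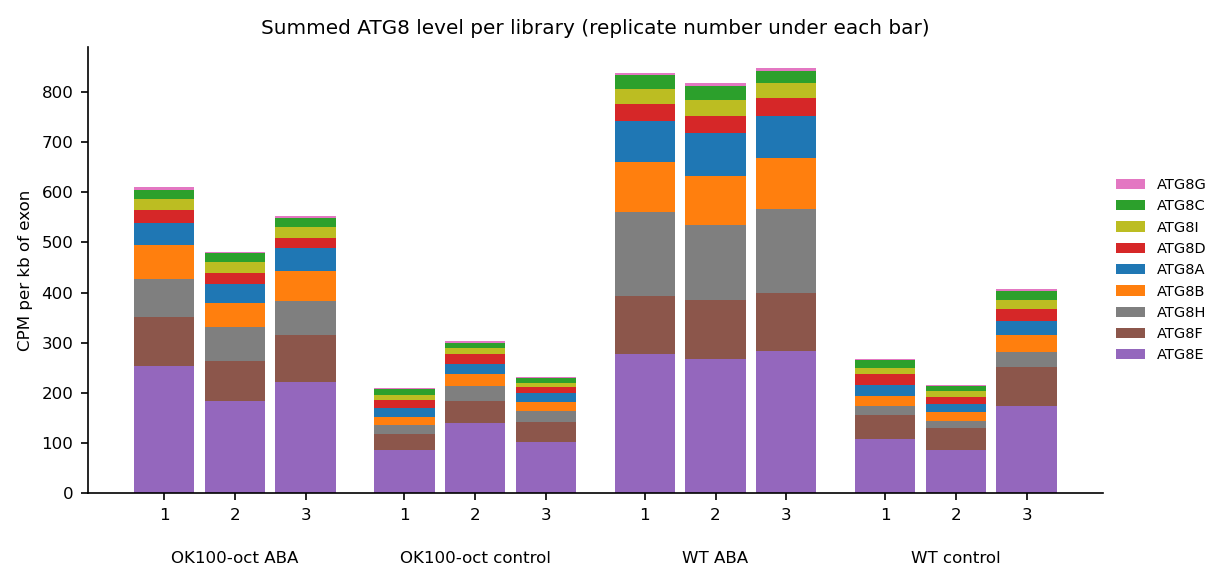
Summed level of the 9 ATG8 genes in each library, in CPM per kb of exon, stacked by gene, with the replicate number under each bar. The 3 WT libraries with ABA reach 816.4 to 846.4 and the 3 OK100-oct libraries with ABA 481.5 to 609.1, and the ATG8H segment is largest in WT with ABA.

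The promoters are shown for the members that rose 3-fold in WT (ATG8H, ATG8A and ATG8B), because ABA-responsive factors of the bZIP class bind sites with the core ACGTG, and for ATG8E, the most abundant member, which holds that core at a pair of places. Each line is the 250 bases before the annotated start, 5′ to 3′ on the gene's strand, from TAIR10.1 with the RefSeq annotation, with ACGTG or its complement CACGT in capitals.
ATG8H: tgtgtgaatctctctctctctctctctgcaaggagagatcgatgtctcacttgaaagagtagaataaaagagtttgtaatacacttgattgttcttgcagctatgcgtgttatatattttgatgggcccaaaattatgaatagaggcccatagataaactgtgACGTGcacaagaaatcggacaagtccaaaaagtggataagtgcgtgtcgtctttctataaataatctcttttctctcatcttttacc
ATG8A: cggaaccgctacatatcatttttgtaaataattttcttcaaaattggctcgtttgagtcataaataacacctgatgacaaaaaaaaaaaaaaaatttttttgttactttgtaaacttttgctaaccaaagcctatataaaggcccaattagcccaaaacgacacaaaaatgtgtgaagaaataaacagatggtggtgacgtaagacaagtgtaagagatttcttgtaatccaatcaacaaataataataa
ATG8B: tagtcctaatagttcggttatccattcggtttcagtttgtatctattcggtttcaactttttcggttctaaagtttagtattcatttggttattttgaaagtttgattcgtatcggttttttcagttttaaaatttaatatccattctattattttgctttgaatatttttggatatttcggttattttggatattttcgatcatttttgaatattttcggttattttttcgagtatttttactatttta
ATG8E: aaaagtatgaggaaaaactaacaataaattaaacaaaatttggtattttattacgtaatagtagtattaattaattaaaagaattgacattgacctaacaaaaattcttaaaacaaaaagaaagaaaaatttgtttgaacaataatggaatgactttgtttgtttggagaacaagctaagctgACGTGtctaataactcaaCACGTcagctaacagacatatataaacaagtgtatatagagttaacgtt
The windows are chr3:1956398-1956647 (minus strand), chr4:11655312-11655561 (plus), chr4:2330591-2330840 (minus) and chr2:18624014-18624263 (plus). Searched on both strands, ACGTG was found in 5 of 9 members (ATG8E, ATG8F, ATG8G, ATG8H and ATG8I) and in 22.9% of 27443 promoters of that length. It was absent from the windows of ATG8A, ATG8B, ATG8C and ATG8D. The single match of ATG8H lay 87 bases before the start. The G-box CACGTG, which contains ACGTG, was in 0 of 9 windows and in 6.49% of all. TGACG, which can overlap ACGTG in TGACGTG, was in 6 of 9 (18.6% of all), CCGAC in 2 of 9 (12.0% of all) and TTGAC in 2 of 9 (44.9% of all). A match in these windows, or its absence, is a description and no evidence on binding. Sequence outside the windows was not searched, and a link of the motifs to the ABA responses was not tested.

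The rest of the autophagy machinery, together with upstream regulators, was followed in 45 genes from lists of the pathway, of which 44 were tested. With ABA, 32 of 44 were higher in OK100-oct and 40 of 44 in WT, with none lower, where 25.9% and 32.2% of all genes were higher in these comparisons. Their median log2 fold change was 0.48 in OK100-oct and 0.79 in WT, below the 1.15 and 1.12 of the ATG8 genes. With ABA, 36 of 44 were lower in OK100-oct than in WT, with a median of -0.46, where 20.7% of all tested genes were lower and 21.3% higher. Without ABA 0 of 44 differed in edgeR, where 2.58% of all tested genes were higher in OK100-oct and 2.29% lower. DESeq2 called 0, and 6 had an unadjusted p under 0.05 in edgeR, for which no share of all genes is given here. The ABA response differed in 15 of 44 and was smaller in OK100-oct in each of these, where 9.55% of all tested genes had a smaller response and 18.2% any called difference.

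By role, the processing and lipidation genes (ATG4, ATG7, ATG3 and the ATG12 system) had 7 of 9 higher with ABA in OK100-oct and 8 of 9 in WT, and the ATG1 kinase complex, which starts autophagy, had 6 of 8 in each genotype. The ATG9, ATG2 and ATG18 genes, which supply lipid to the growing membrane, had 6 of 9 in OK100-oct and 8 of 9 in WT. The lipid kinase complex of VPS34 and ATG6 had 4 of 6 in OK100-oct and 6 of 6 in WT. The receptors that bind ATG8 had 5 of 8 in OK100-oct and 8 of 8 in WT. The upstream regulators TOR, RAPTOR1B, KIN10 and KIN11 had 4 of 4 in each. The lists do not separate genes that promote autophagy from genes that restrain it.

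ATG7, which activates ATG8 for lipidation, had the called difference between genotypes with the largest size among these genes after TSPO. It was at 32.6, 28.1 and 27.3 CPM with ABA in OK100-oct, against 16.4, 19.5 and 19.1 CPM without, and at 61.4, 56.5 and 63.1 CPM with ABA in WT, against 15.8, 15.4 and 20.1 CPM without. The groups with ABA were separate from each other and from the controls. The log2 fold change was 0.68 in OK100-oct and 1.81 in WT, and the difference was -1.14 (SE 0.16, adjusted p = 0.00040 by edgeR). ATG18F rose most after TSPO, by 1.16 (SE 0.09) in OK100-oct and 2.15 (SE 0.09) in WT on the log2 scale, and was lower in OK100-oct than in WT with ABA by a log2 value of -1.04 (SE 0.09). TSPO, a membrane protein that ATG8 carries to the vacuole, had 2 to 4 counts in the OK100-oct controls and 2 to 5 in the WT controls. With ABA it was at 12.3, 19.6 and 17.5 CPM in OK100-oct and at 148, 125.5 and 139 CPM in WT, with no overlap. The ratio of summed counts of TSPO with ABA over control was 138 in OK100-oct (95% exact interval 72.7 to 304, counting error only) and 733 in WT (409 to 1470).

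**Figure D5:**
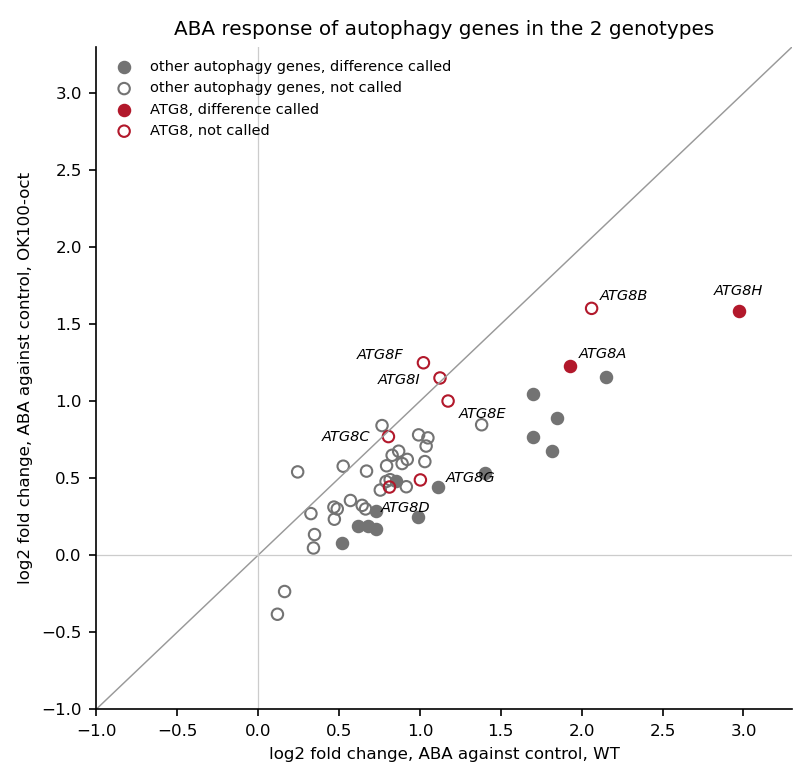
Log2 fold change with ABA in OK100-oct (vertical) against that in WT (horizontal) for the 9 ATG8 genes (red) and 43 other autophagy genes (grey), filled where the difference between genotypes had an adjusted p under 0.05, with the line of equal response. TSPO, at 7.04 in OK100-oct and 9.48 in WT, lies outside the axes, and ATG8H (1.58 in OK100-oct, 2.97 in WT) lies farthest from the line among the genes drawn.

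Genes of senescence moved with the ATG8 genes. Of 5 markers, SAG12, which marks late senescence, had 0 counts in all 12 libraries, and the other 4 (SAG13, ORE1, NAP and SGR1) rose with ABA in both genotypes and were lower in OK100-oct than in WT with ABA. Of all tested genes 25.9% rose with ABA in OK100-oct, 32.2% rose in WT and 20.7% were lower in OK100-oct than in WT with ABA. The summed marker level was 163 to 182 CPM in OK100-oct with ABA and 22.0 to 40.9 CPM in OK100-oct without ABA, and 372 to 423 CPM in WT with ABA and 28.8 to 58.9 CPM in WT without ABA. The 3 leaf genes summed to 31320 to 34470 CPM in OK100-oct with ABA and 26310 to 28970 CPM in WT with ABA, and the 3 root genes to 1564 to 1854 CPM in OK100-oct with ABA and 917 to 1074 CPM in WT with ABA. With ABA, 2 of the 3 leaf genes (RBCS1A and CA1) and 1 of the 3 root genes (PYK10) were higher in OK100-oct than in WT (edgeR). Of all tested genes, 21.3% were higher in that comparison. PYK10, at 1691 CPM in OK100-oct and 970.5 CPM in WT on average with ABA, made most of the root sum. COBL9 (6.35 CPM in OK100-oct and 6.02 CPM in WT) and RHD6 (5.74 CPM and 5.30 CPM) were not called. The part of these shifts in the ATG8 values was not tested.

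The members resembled each other over the 12 libraries. Each member's log2(CPM + 1) was compared with that of the summed CPM of the members, here not divided by exon length. Pearson r with this sum, which includes the member itself, lay between 0.90 (ATG8D) and 0.996 (ATG8B). Pairs of members had r between 0.842 (ATG8F and ATG8G) and 0.985 (ATG8A and ATG8B). These libraries fall into treated and untreated groups and share their scaling, so r also carries the differences between the groups. Among all other tested genes the highest r with the summed CPM were those of AT1G07040 (0.997), RABG3E (AT1G49300, a Rab GTPase, 0.997) and AT1G10140 (0.996). AT1G07040 averaged 200.3 CPM in OK100-oct with ABA and 51.6 CPM in OK100-oct without ABA, against 373 CPM in WT with ABA and 81.3 CPM in WT without ABA. RABG3E averaged 97.7 CPM in OK100-oct with ABA and 56.2 CPM in OK100-oct without ABA, against 127 CPM in WT with ABA and 67.4 CPM in WT without ABA.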

How the data were processed

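RNA from seedlings was sequenced as 12 libraries, 3 per genotype and treatment. Per the labels the authors used Trimmomatic 0.36, HISAT2 2.1.0 on TAIR10 and HTSeq 0.9.1, and they deposited gene counts, whole numbers that are not normalized. The Methods give other versions of Trimmomatic and HTSeq, a directional kit where the labels give a TruSeq kit, and an age of about 2 weeks where the labels give 12 days. The label m9 was taken as OK100-oct because the paper sequenced that mutant. No columns of the table lacked a sample. The labels do not say that replicates were separate cultures, so p-values measure the spread between these libraries. Replicates differed by more than sampling noise.

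Counts that passed filterByExpr were scaled by TMM and fitted in edgeR 4.0.16 (R 4.3.3), all 12 libraries with a mean per group, and tested by quasi-likelihood with Benjamini-Hochberg adjustment over 20617 genes. Genes were called at an FDR of 0.05 at any fold, and the 3-fold limit of the Methods is given beside this. SE is the log2 fold change divided by the square root of F. The fit was run on simulated counts with a known change in a small set of genes and the same spread for every gene. That simulation did not cover the widespread changes or the uneven replicates of these data. CPM used the filtered library size times the TMM factor. Exon lengths, coding ends and promoters came from RefSeq TAIR10.1 (32835 of 33602 rows matched by locus). Coding identity was the share of identical columns, gaps included, in a global alignment of the longest coding sequence of each gene. Protein sequences were not used here. The text names all members, in each comparison the pathway genes with the 2 largest rises and 2 largest falls at 1 CPM or more, and the 3 genes most like the summed CPM. APR3, AT3G15578, RAF genes and markers were checks. The members and lists were chosen with earlier results of these data known. Alternatives used DESeq2 1.42.0, other scalings, filters and thresholds, a replicate block, fits of the compared groups and leaving out each library. Plots used Python 3.11.15 and matplotlib 3.10.9.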

Additional observations from a re-analysis of the deposited data

Results flagged for a closer look

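The results below differed between the genotypes by a test of the difference itself, the ABA log2 fold change in OK100-oct minus that in WT (edgeR quasi-likelihood test, adjusted over 20617 genes). Among the ATG8 genes these were ATG8H at -1.39 (adjusted p = 0.0054) and ATG8A at -0.70 (adjusted p = 0.026). Among the named pathway genes they were ATG7 at -1.14 (adjusted p = 0.00040), ATG18F at -0.996 (adjusted p = 0.00022) and TSPO at -2.44 (adjusted p = 0.038), the last with at most 5 counts in any control library. Among the senescence markers they were SAG13 at -2.14 (adjusted p = 0.011), with 5 to 25 counts in the control libraries, and SGR1 at -1.25 (adjusted p = 0.0029). All 7 differences were negative, that is, the response was smaller in OK100-oct than in WT. Of all tested genes, 9.55% had a smaller response and 18.2% any called difference. ATG7 was named for the size of this fall, and TSPO and ATG18F for their extreme changes. The sign shared by these pathway genes is therefore no separate result.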

How the results depend on the processing

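The 9 rises with ABA in WT and the 7 in OK100-oct kept their direction and their call in each alternative run, apart from the fold limit. The 3-fold limit left 1 member higher with ABA in OK100-oct, 3 in WT, 0 lower in OK100-oct with ABA and 0 with a different response, and an FDR of 0.01 left 3 lower in OK100-oct with ABA and 1 with a different response (ATG8H). Library totals without TMM moved the median of all genes to -0.18 for ABA in OK100-oct and -0.37 for ABA in WT, left 3 members lower in OK100-oct with ABA, and gave -0.47 for the summed level in that comparison. Without ABA the count lower in OK100-oct was 2 by DESeq2 (729 of all 20617 genes) and 1 with no filter on low counts (ATG8I, 517 of all 26361 genes). Leaving out each library gave 7 to 9 members higher with ABA in OK100-oct and 9 in WT, 5 to 7 lower in OK100-oct with ABA, 0 to 4 lower without ABA and 1 to 3 with a different response, and the summed level of OK100-oct against WT without ABA ranged from -0.43 to 0.028. The sign turned only for differences that were not called. For OK100-oct against WT without ABA, leaving out a library gave ranges of -0.54 to 0.010 for ATG8B, -0.37 to 0.17 for ATG8E and -0.30 to 0.27 for ATG8G. For the difference in response it gave -0.24 to 0.14 for ATG8C, -0.51 to 0.043 for ATG8E, -0.080 to 0.38 for ATG8F and -0.20 to 0.17 for ATG8I. Library totals gave 0.091 for ATG8C, and for ATG8I DESeq2 gave -0.012 and its size factors in edgeR -0.011. Without WT control replicate 3 and OK100-oct control replicate 2 together, added after seeing the data, ATG8G was at -0.081 without ABA and the response of ATG8I differed by -0.11. The cause of these shifts was not tested.

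The replicate block changed no count of members. Libraries with the same replicate number did not deviate together (r between -0.49 and 0.38, median -0.062, over 18 pairs), so the numbers were not read as pairs. With 3 libraries per group the spread between replicates limits the precision, and for ATG8G, at 38 to 144 counts, depth does as well.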

Other observations

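APR3 (AT4G21990), whose exons overlap those of ATG8A by 27 bases, was chosen as its neighbour and not for its values. It was at 152.3, 228.3 and 152.6 CPM with ABA in OK100-oct, against 202.5, 217.7 and 243.5 CPM without, and at 74.4, 75.1 and 115.9 CPM with ABA in WT, against 209.6, 212.5 and 194.3 CPM without. Its libraries overlapped between ABA and control in OK100-oct and did not in WT, and its ABA response differed between the genotypes by 0.90 on the log2 scale (SE 0.25, adjusted p = 0.026 by edgeR).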
